A study of Mus musculus with 16 samples.

Results

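The aryl hydrocarbon receptor and its target genes were followed in mouse blastocysts, preimplantation embryos made of a trophectoderm wall, an inner cell mass and a fluid-filled cavity. Members were chosen by name. Every probe set whose platform annotation named only 1 of the 7 genes Ahr, Arnt, Cyp1a1, Cyp1b1, Ahrr, Tiparp and Nqo1 was kept, dim ones included, which gave 16 of the 45037 probe sets measured in all samples, for 7 of the 18193 genes named. The 12 samples formed 4 groups of 3, and all were total RNA from blastocysts. The treated groups received 20 µM U0126 (an inhibitor of MEK, the kinase that activates ERK), 25 µM SP600125 (an inhibitor of JNK) or 20 µM SB203580 (an inhibitor of p38 MAP kinases). The control group has no treatment named, and whether it received the solvent is not stated, nor are strain, treatment length and the number of embryos pooled. Replicate 1 of each group was read on a 430A and a 430B array after a small sample labelling assay, and replicates 2 and 3 on 430 2.0 arrays after another labelling assay, so signals were compared only within an array type. Nothing in the labels states that replicates came from separate cultures, and p-values may then reflect technical spread between samples.

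The aryl hydrocarbon receptor, encoded by Ahr, is a ligand-activated transcription factor of the bHLH-PAS family that rests in the cytoplasm with HSP90 and other chaperones. Once a planar aromatic ligand binds, it enters the nucleus, pairs with ARNT and binds DNA elements whose core is GCGTG, most of all at Cyp1a1, the gene best known for its response. The receptor's activity is limited by the products of 2 of its own targets, the repressor AHRR, which competes for ARNT, and the ADP-ribosyltransferase TIPARP, which modifies the receptor. U0126 and SP600125 have each been reported in other cells to act on this receptor directly, which is background here and was not tested.

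Of the 7 genes, 6 had a promoter entry in the RefSeq table (GRCm38.p6), which holds 250 bases before and 50 bases after each annotated start. The 4 promoters below belong to the target genes set against each other in the results, 3 with higher signal in U0126-treated blastocysts than in one or both other treated groups (Cyp1a1, Cyp1b1 and Ahrr) and 1 without such a call (Tiparp). Capitals mark GCGTG on the printed strand or CACGC, its form on the other strand.
Cyp1a1, chr9:57697363-57697662, plus strand: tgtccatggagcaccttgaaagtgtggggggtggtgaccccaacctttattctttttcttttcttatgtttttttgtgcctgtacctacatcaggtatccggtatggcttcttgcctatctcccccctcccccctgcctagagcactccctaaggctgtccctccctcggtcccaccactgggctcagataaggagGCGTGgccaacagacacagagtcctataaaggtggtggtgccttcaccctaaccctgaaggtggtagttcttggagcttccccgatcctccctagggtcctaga
Cyp1b1, chr17:79715012-79715311, minus strand: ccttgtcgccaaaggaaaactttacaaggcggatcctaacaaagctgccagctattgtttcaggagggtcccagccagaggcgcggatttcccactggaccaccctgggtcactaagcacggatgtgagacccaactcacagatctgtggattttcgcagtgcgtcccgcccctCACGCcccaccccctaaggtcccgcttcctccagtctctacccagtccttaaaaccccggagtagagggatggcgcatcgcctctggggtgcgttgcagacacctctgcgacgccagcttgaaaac
Ahrr, chr13:74292282-74292581, minus strand: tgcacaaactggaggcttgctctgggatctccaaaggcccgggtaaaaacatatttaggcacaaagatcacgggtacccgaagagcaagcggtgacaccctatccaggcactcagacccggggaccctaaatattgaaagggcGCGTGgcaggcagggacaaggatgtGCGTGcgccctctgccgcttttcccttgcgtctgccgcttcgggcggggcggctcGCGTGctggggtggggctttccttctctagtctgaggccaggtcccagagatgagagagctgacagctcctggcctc
Tiparp, chr3:65528197-65528496, plus strand: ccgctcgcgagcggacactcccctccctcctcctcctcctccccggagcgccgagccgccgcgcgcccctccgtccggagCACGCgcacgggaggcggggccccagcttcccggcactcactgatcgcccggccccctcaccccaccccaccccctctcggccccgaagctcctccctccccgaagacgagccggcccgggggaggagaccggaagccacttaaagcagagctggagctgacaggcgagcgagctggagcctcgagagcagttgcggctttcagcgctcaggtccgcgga
The Ahrr window held 3 matches on the printed strand, whose first bases lay at -107, -82 and -27 relative to the start, and the last of them was part of the longer form TNGCGTG at -29. Cyp1a1 had 1 match at -54 on the same strand. Cyp1b1 had 1 at -76 and Tiparp 1 at -170, both on the other strand. Arnt, on chromosome 3, had 1 match at -29, and Nqo1, on chromosome 8, had none. Over all 32817 promoters of the table, 32.4% held GCGTG on either strand, 3.91% held it at least 3 times and 5.06% held TNGCGTG. A single match is therefore common, and a match is a run of letters, not a measured binding site. Sequence beyond these windows was not searched, so the counts do not cover elements further from the start.

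**Figure D1:**
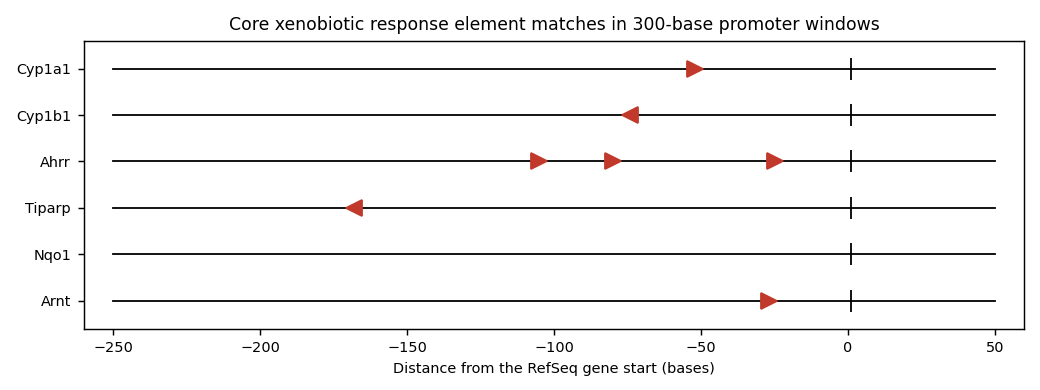
Positions of GCGTG on either strand in the RefSeq promoters of 6 genes, in bases from the annotated start (x axis), with the arrowhead giving the strand of each match. Ahrr has 3 matches, Cyp1a1, Cyp1b1, Tiparp and Arnt have 1 each, and Nqo1 has none.

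Signals are in the deposited linear units, in which each array has a trimmed mean of 500. On the 430 2.0 arrays the median signal was 77.7 and 83.0 in U0126-treated blastocysts and 61.1 to 68.9 on the other 6, on the 430A arrays it was 131.6 to 147.4, and on the 430B arrays 223.8 to 230.9. On the 430A arrays the actin probe sets of the 3' and 5' ends stood in a ratio of 1.62 in U0126-treated, 3.66 in SP600125-treated, 2.81 in SB203580-treated and 2.47 in control blastocysts, against 1.58 to 1.75 on the 430 2.0 arrays. A signal is called near background here when it is at or below the 90th percentile of olfactory and vomeronasal receptor probe sets on its own array, genes not expected in embryos. That limit was 40.3 to 65.3 on the 430 2.0 arrays (80 receptor probe sets), 88.74 to 126.02 on the 430A arrays (65) and 291.5 to 405.3 on the 430B arrays, where it rests on only 15. The 7 trophectoderm, 4 inner cell mass and 5 primitive endoderm markers were above it on most 430 2.0 arrays. In bulk RNA, fewer cells of a type and less RNA per cell cannot be told apart.

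Ahr itself was above background in 11 of 12 samples on 1 of its 2 probe sets. On 1422631_at the signals were 118.2, 412.7 and 337.8 (replicates 1, 2 and 3) in U0126-treated, 121.1, 342.5 and 453.3 in SP600125-treated, 127.5, 227.3 and 449.1 in SB203580-treated and 160.3, 235.1 and 323.2 in control blastocysts. On the 430 2.0 arrays both U0126 and both SP600125 samples lay above both controls, while in replicate 1 all 3 treated samples lay below the control. The U0126 change was 0.15 ± 0.30 on the log2(signal + 12.6) scale (standard error, n = 3 per group), with a 95% interval from -0.49 to 0.79 and an adjusted p of 0.896 (limma, Benjamini-Hochberg), an interval that holds both a fall and a rise. The other probe set, 1450695_at, was too dim to be tested and had 153.7, 10 and 34.9 in U0126-treated, 42.7, 9.4 and 24.4 in SP600125-treated, 189.2, 102.6 and 68.0 in SB203580-treated and 73.8, 10.5 and 44.4 in control blastocysts. On it the SB203580 samples were the highest on both array types, and all 3 controls were near background. Its SB203580 against control change without the filter on dim probe sets, 1.35 ± 0.54, had an adjusted p of 0.538, and the 2 Ahr probe sets correlated at -0.16 over the 12 samples.

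Arnt, the partner that the receptor shares with the hypoxia factors, had 5 probe sets, of which 4 were tested. On 1437042_at the signals were 969.7, 567.0 and 349.2 in U0126-treated, 627.9, 251.2 and 431.0 in SP600125-treated, 721.0, 330.6 and 342.7 in SB203580-treated and 507.4, 205.9 and 482.1 in control blastocysts. The U0126 and control samples overlapped on the 430 2.0 arrays on 1437042_at, 1419996_s_at and 1421721_a_at. On 1449696_at the U0126 samples (103.1 and 134.0) lay above both controls (96.4 and 58.3) on those arrays. Its replicate 1 signals were near background in all groups. Over the 4 tested probe sets the U0126 change ran from -0.34 ± 0.31 (1421721_a_at) to 0.76 ± 0.38 (1449696_at), and none passed the test in any of the 6 comparisons. Pairs of Arnt probe sets correlated between -0.49 and 0.26, so they did not share a pattern. On 1419996_s_at 1 sample stood apart, with 110.7 in SB203580 replicate 1 against 475.7 in control replicate 1, a difference absent from the 430 2.0 arrays (211.6 and 423.4 against 257.2 and 461.2). The fifth Arnt probe set, 1425064_at, was near background in 11 of 12 samples.

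Cyp1a1, a cytochrome P450 that oxidises planar aromatic compounds, was far higher in U0126-treated than in control blastocysts. Its probe set 1422217_a_at gave 963.0, 1384.6 and 1079.4 in U0126-treated, 113.5, 87.7 and 109.4 in SP600125-treated, 705.5, 50 and 30.4 in SB203580-treated and 121.6, 30.9 and 11.4 in control blastocysts. The U0126 samples were the highest on both array types, and all 3 controls were near background. SB203580 replicate 1 stood far above control replicate 1 and above the receptor limit of its own array, 114.3. SB203580 replicates 2 and 3 were near background. Cyp1a1 rose by 4.46 ± 0.62 with U0126 (95% interval 3.15 to 5.77, adjusted p = 0.00402), with replicate differences of 2.86, 5.43 and 5.08. Since the controls were near background, the level supports only a bound on the mean ratio. For each control the higher of its signal and its array's receptor limit was taken. As a geometric mean over the 3 replicates, the level was then at least 18.5-fold higher with U0126. That mean bound was 28.9-fold on the 430 2.0 arrays and 7.64-fold in replicate 1, and it leaves out the spread between samples. The log2 change ran from 3.38 to 4.84 with a larger or smaller added constant. Among the 12 tested probe sets of these genes it was the only one called against control, beside 0.448% of all tested probe sets called in either direction and 0.174% called higher. Without the filter on dim probe sets it was again the only one called of 16, beside 0.22% of all.

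**Figure D2:**
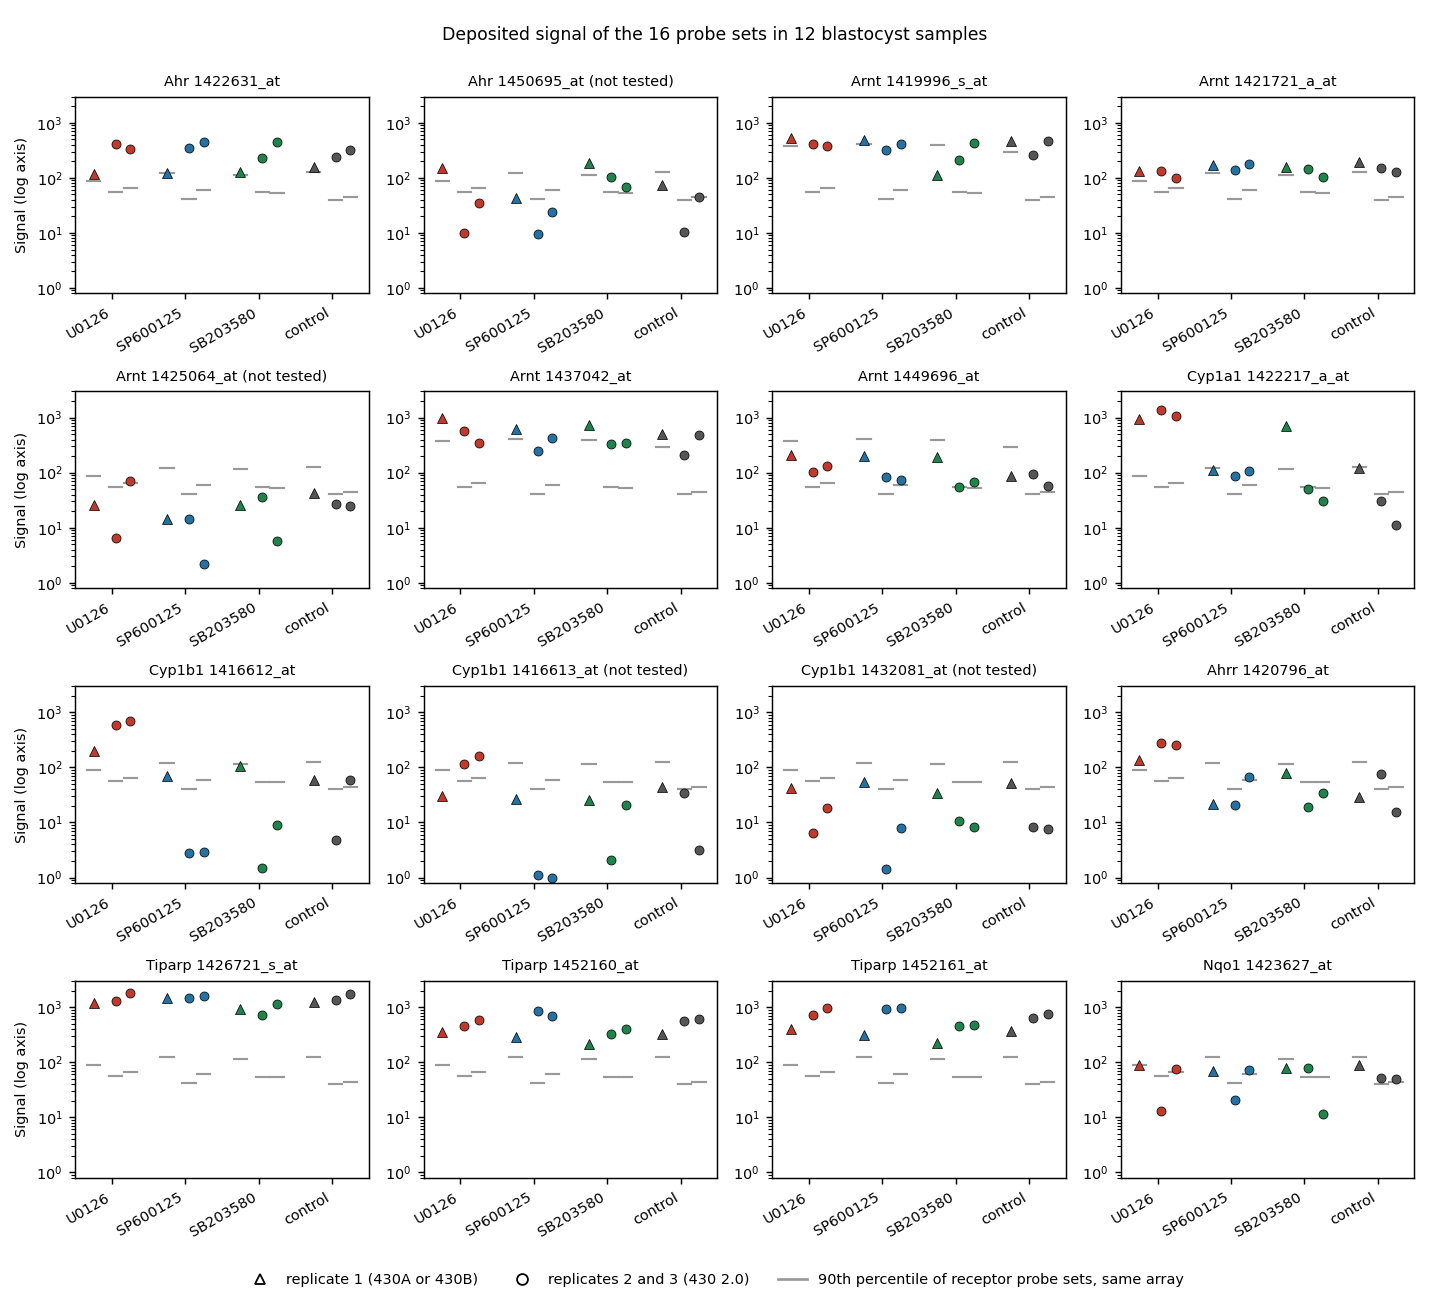
Signal of the probe sets in each sample on a log axis, by group (U0126, SP600125, SB203580, control). Triangles are replicate 1 (430A or 430B), circles replicates 2 and 3 (430 2.0), and grey dashes the receptor 90th percentile of each array. Cyp1a1 lies at 963.0 to 1384.6 in U0126-treated samples and at 11.4 to 121.6 in controls, while Tiparp overlaps between those groups.

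Cyp1a1 also rose against both other treated groups, by 3.30 ± 0.62 with U0126 over SP600125 (adjusted p = 0.00741) and by 3.20 ± 0.62 with U0126 over SB203580 (adjusted p = 0.0140). The second comparison differed between array types, because in replicate 1 the signals were 963.0 with U0126 and 705.5 with SB203580. In it SB203580 replicates 2 and 3 were near background, so the size of that change is uncertain. Of 19 probe sets called higher with U0126 on the 430 2.0 arrays alone, 16 were higher than the control of replicate 1 in U0126 replicate 1, 9 in SP600125 replicate 1 and 9 in SB203580 replicate 1. Of 37 called lower, 36 were lower in U0126 replicate 1, 25 in SP600125 replicate 1 and 26 in SB203580 replicate 1. Leaving out SB203580 replicate 1 left a SB203580 against control change of 0.21 ± 0.52, where it was 1.26 ± 0.62 with all samples (adjusted p = 0.957 and 0.560). The U0126 over SP600125 call was lost without SP600125 replicate 1 (2.76, adjusted p = 0.0545), and the U0126 over SB203580 call was lost without U0126 replicate 2 or 3 or SB203580 replicate 2 or 3 (adjusted p 0.0740 to 0.0860). Every one of these left-out settings kept Cyp1a1 higher with U0126.

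SP600125 against control gave Cyp1a1 a change of 1.15 ± 0.62 (adjusted p = 0.665). On the 430 2.0 arrays both SP600125 samples, 87.7 and 109.4, lay above both controls, 30.9 and 11.4, while in replicate 1 the 2 signals were 113.5 and 121.6, both near background. None of the 12 tested probe sets was called in this comparison, beside 0.592% of all tested probe sets, and none of 16 without the filter, beside 0.318%.

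Cyp1b1, a related P450 that also oxidises oestradiol, had 3 probe sets of decreasing brightness. The brightest, 1416612_at, gave 200.6, 589.9 and 689.7 in U0126-treated, 69.7, 2.8 and 2.9 in SP600125-treated, 107.5, 1.5 and 9.0 in SB203580-treated and 58.7, 4.8 and 58.9 in control blastocysts. The U0126 samples were the highest on both array types, and all 3 SP600125 samples, all 3 SB203580 samples and 2 of 3 controls were near background. Cyp1b1 was higher with U0126 than with SP600125 by 4.05 ± 0.76 (adjusted p = 0.00741) and than with SB203580 by 3.76 ± 0.76 (adjusted p = 0.0185). As geometric means over the 3 replicates, the levels were at least 6.45-fold and 6.25-fold higher. Without replicate 1 these mean bounds were 12.8-fold and 11.8-fold, and in replicate 1 alone they were 1.64-fold and 1.75-fold. They leave out the spread between samples. Against control its change of 3.33 ± 0.76 missed the threshold (adjusted p = 0.0689) and ran from 2.27 to 3.81 depending on the constant added. Without U0126 replicate 1 that change was 4.56 with an adjusted p of 0.00656, and the call over SB203580 was lost without U0126 replicate 2 or 3 or SB203580 replicate 2 or 3 (adjusted p 0.0781 to 0.110).

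The second Cyp1b1 probe set, 1416613_at, was too dim for the test and gave 30.7, 113.3 and 164.1 in U0126-treated, 26.2, 1.1 and 1.0 in SP600125-treated, 26.0, 2.1 and 20.5 in SB203580-treated and 43.6, 34.1 and 3.2 in control blastocysts. The U0126 samples were the highest on the 430 2.0 arrays but not in replicate 1, where all 4 groups were near background. Without the filter, its U0126 over SP600125 change was 2.35 ± 0.63 (adjusted p = 0.0747). The third probe set, 1432081_at, was near background in 12 of 12 samples.

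Ahrr, the repressor induced by the receptor it restrains, had 1 probe set, 1420796_at. Its signals were 136.6, 280.6 and 250.8 in U0126-treated, 21.7, 20.8 and 68.0 in SP600125-treated, 78.8, 19.0 and 33.9 in SB203580-treated and 29.3, 74.8 and 15.4 in control blastocysts. All 3 U0126 samples lay above every other sample of their array type, and 7 of the other 9 samples were near background. Ahrr was higher with U0126 than with SP600125 by 2.32 ± 0.57 (adjusted p = 0.0365), with a difference in every replicate of 2.12 to 2.50. Against control the change was 2.27 ± 0.57 at an adjusted p of 0.101, and it ran from 1.42 to 2.58 depending on the constant added. Over SB203580 it was 2.14 ± 0.57 at an adjusted p of 0.0794, and without SB203580 replicate 1 it was 2.75 at an adjusted p of 0.0490. The call over SP600125 did not hold without the filter on dim probe sets (adjusted p = 0.0547) or when U0126 replicate 2 or 3 or SP600125 replicate 1 or 2 was left out (adjusted p 0.1004 to 0.1399).

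U0126 over SP600125 called 3 of the 12 tested probe sets, all higher with U0126, beside 2.93% of all tested probe sets in either direction and 1.49% higher. Without the filter 2 of 16 were called, beside 1.33%. U0126 over SB203580 called 2 of 12, both higher, beside 1.37% in either direction and 0.84% higher, and 2 of 16 without the filter, beside 0.662%. Without the U0126 arrays the means of Cyp1b1 1416612_at and Ahrr (13.3 and 38.65) would miss the filter, then at 39.98. Taken group by group, Cyp1b1 would pass on no other group's arrays. Cyp1a1 would not pass on SB203580 or control arrays, nor Ahrr on SB203580 arrays. These counts thus only describe the probe sets, and the filtered calls of Cyp1b1 and Ahrr share this dependence on the U0126 arrays. In the limma fit without the filter, Cyp1b1 1416612_at had an adjusted p of 0.00782 over SP600125 and 0.0209 over SB203580. Ahrr had 0.0547 over SP600125. Scaling the arrays to their median moved the median change of all tested probe sets from 0.06 to -0.15 in U0126 against control, from 0.07 to -0.13 over SP600125 and from 0.06 to -0.11 over SB203580. The called probe sets were then split into 16 higher and 252 lower (47 and 74 as deposited), 113 and 1002 (402 and 389), and 94 and 298 (227 and 144). Under that scaling the Cyp1a1 change against control was 4.26 and kept its call.

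**Figure D3:**
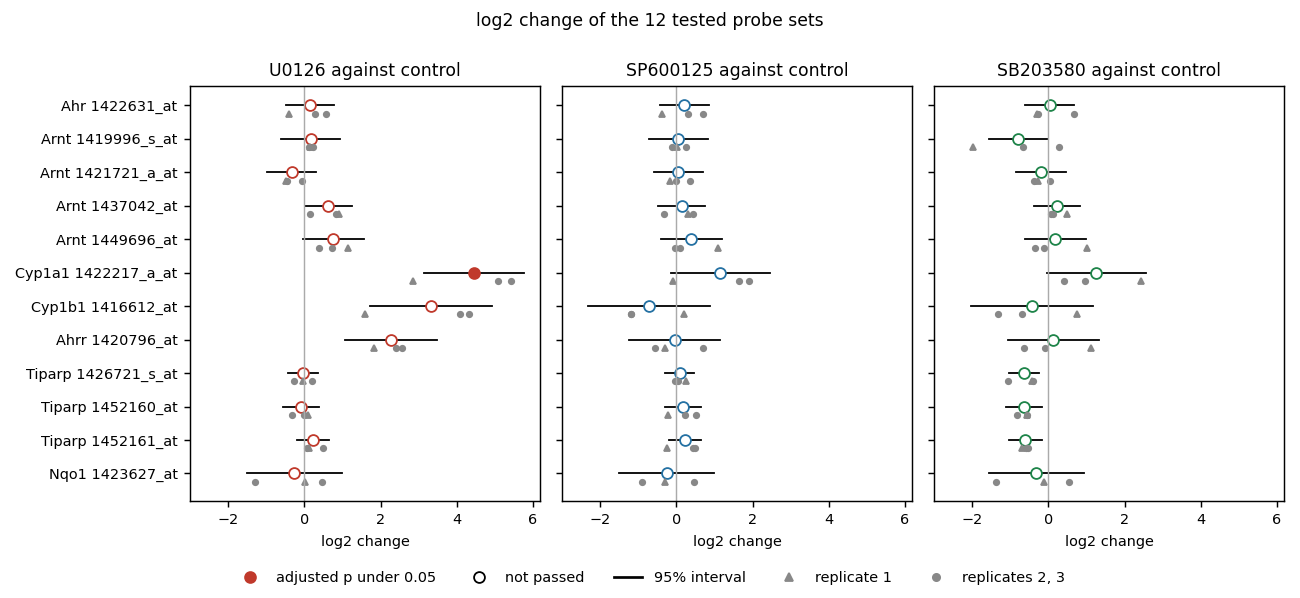
Log2 changes (x axis) of the 12 tested probe sets (rows) with U0126, SP600125 and SB203580 against control, with 95% intervals as black lines and the differences of replicate 1 (grey triangles) and replicates 2 and 3 (grey circles). Filled points have an adjusted p under 0.05, and the only one is Cyp1a1 with U0126, at 4.46.

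Tiparp, unlike the genes above, was well above background in every sample on all 3 probe sets. The brightest, 1426721_s_at, gave 1212.0, 1273.0 and 1781.3 in U0126-treated, 1484.5, 1493.2 and 1591.5 in SP600125-treated, 918.0, 731.1 and 1151.9 in SB203580-treated and 1250.0, 1357.0 and 1749.3 in control blastocysts. On it the U0126, SP600125 and control samples overlapped, and the SB203580 samples were the lowest on both array types. On 1452160_at and 1452161_at both SP600125 samples of the 430 2.0 arrays lay above both controls, while SP600125 replicate 1 lay below its control. The SP600125 changes against control were 0.08 ± 0.18, 0.17 ± 0.22 and 0.23 ± 0.20 for 1426721_s_at, 1452160_at and 1452161_at (lowest adjusted p 0.858). The U0126 changes against control were -0.04 ± 0.18, -0.09 ± 0.22 and 0.22 ± 0.20 for 1426721_s_at, 1452160_at and 1452161_at. Their 95% intervals, at most -0.56 to 0.64, do not reach the lower end of the Cyp1a1 interval, 3.15.

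SB203580 against control gave the 3 Tiparp probe sets changes of -0.64 ± 0.18, -0.65 ± 0.22 and -0.60 ± 0.20, with every SB203580 sample below the control mean of its array type. Their adjusted p-values were 0.189, 0.303 and 0.285. On 1452161_at the signals were 223.5, 452.0 and 470.1 with SB203580 and 371.6, 631.7 and 738.4 in controls, and the groups did not overlap on the 430 2.0 arrays. None of the 12 tested probe sets passed in this comparison, beside 0.389% of all, and none of 16 without the filter, beside 0.206%. U0126 over SB203580 gave Tiparp 0.60 ± 0.18, 0.57 ± 0.22 and 0.82 ± 0.20 (lowest adjusted p 0.0526), and SP600125 over SB203580 gave 0.72 ± 0.18, 0.82 ± 0.22 and 0.84 ± 0.20 (lowest adjusted p 0.0686). Without SP600125 replicate 1, 1452161_at passed over SB203580 (1.04, adjusted p = 0.0411). Those comparisons share the SB203580 samples. SP600125 over SB203580 called none of the 12, beside 0.788%, and none of 16 without the filter, beside 0.433%.

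Nqo1, a quinone reductase that answers both this receptor and the oxidative stress factor NRF2, was near background in 6 of 12 samples. Its probe set 1423627_at gave 90.1, 13.0 and 74.2 in U0126-treated, 69.0, 20.8 and 73.5 in SP600125-treated, 80.1, 78.3 and 11.7 in SB203580-treated and 88.6, 51.4 and 48.8 in control blastocysts. All groups overlapped. The U0126 change was -0.27 ± 0.59 (adjusted p = 0.903), with an interval from -1.51 to 0.98.

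The other genes of the pathway came from 6 lists, each gene taken by its brightest probe set. Of 10 further enzymes of the receptor's battery, 5 had a probe set of their own and 2 were bright enough to test. Gsta2, a glutathione transferase, gave 244.4, 412.3 and 419.1 in U0126-treated, 113.4, 162.6 and 191.5 in SP600125-treated, 120.1, 96.5 and 128.8 in SB203580-treated and 184.8, 288.5 and 326.3 in control blastocysts. It was higher with U0126 than with SP600125 (1.13 ± 0.28, adjusted p = 0.0392) and SB203580 (1.51 ± 0.28, adjusted p = 0.0113). Each time it was 1 of the 2 tested enzymes, beside 2.93% and 1.37% of all tested probe sets called. Its 0.41 ± 0.28 with U0126 against control did not pass (adjusted p = 0.601). Larger changes against control lay in the other treated groups, without a call. They were -0.72 ± 0.28 with SP600125 (adjusted p = 0.450) and -1.10 ± 0.28 with SB203580 (adjusted p = 0.122). Cyp2s1, a P450 of epithelia, was bright in every sample (4023 to 9280), with a U0126 change of 0.17 and no call. Cyp1a2, the liver form next to Cyp1a1, was dim and untested, with 49.2, 8.6 and 16.4 in U0126-treated and 19.1, 5.6 and 13.7 in control blastocysts. Aldh3a1 and Xdh were likewise too dim to test.

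Of 6 genes of the receptor's cytoplasmic complex, 3 were measured and tested and none passed in any comparison, beside 0.389% to 2.93% of all tested probe sets called, at which none of 3 is no result about the complex. Hsp90aa1, the chaperone that holds the receptor, had changes of -0.03 to 0.05. Of 18 bHLH-PAS partners and relatives, 11 were tested, and only Epas1, the hypoxia factor HIF2A that also pairs with ARNT, passed in any comparison, in the 2 where 0.448% and 0.592% of all were called. Epas1 rose by 0.58 ± 0.10 with U0126 (adjusted p = 0.0108) and by 0.46 ± 0.10 with SP600125 (adjusted p = 0.0427). Its signals were 32365, 10627 and 11580 in U0126-treated and 30745, 10025 and 9980 in SP600125-treated blastocysts. They were 23459, 8434 and 10221 in SB203580-treated and 20542, 7689 and 7515 in control blastocysts. Every treated sample, those with SB203580 included, lay above the controls of its array type. The SB203580 change was 0.26 ± 0.10 and did not pass (adjusted p = 0.375). The median U0126 change over that list was 0.01, beside 0.06 over all tested probe sets.

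Of 9 targets of the hypoxia factors, which compete for ARNT, all were tested and none passed in U0126 against control by its brightest probe set, beside 0.448% of all tested probe sets. Ndrg1, a stress-responsive gene, had 0.50 there (adjusted p = 0.0686), while dimmer probe sets of Ndrg1 and of the glucose transporter Slc2a1 passed at 0.62 ± 0.11 (adjusted p = 0.0108) and 0.80 ± 0.16 (adjusted p = 0.0311). U0126 over SP600125 called 2 of the 9, Slc2a1 (0.91 ± 0.17) and Ndrg1 (0.52 ± 0.11), beside 2.93% of all. U0126 over SB203580 also called 2, Ndrg1 (0.70 ± 0.11) and the angiogenic factor Vegfa (1.96 ± 0.42), beside 1.37%. Vegfa gave 94.4, 162.8 and 275.4 with U0126, 15.3, 30.1 and 64.2 with SB203580 and 35.5, 110.5 and 131.6 in controls. SB203580 replicates 1 and 2 were near background. Against control Vegfa had 0.89 ± 0.42 with U0126 (adjusted p = 0.419) and -1.07 ± 0.42 with SB203580 (adjusted p = 0.391). The list's median U0126 change against control was 0.13. Of 11 regulators and targets of NRF2, 10 were tested. The haem-degrading enzyme Hmox1 had 164.8, 190.0 and 192.9 in U0126-treated and 26.6, 96.0 and 136.2 in control blastocysts, a change of 1.18 that did not pass (adjusted p = 0.200). Gsta4 fell by 0.53 with SP600125 (adjusted p = 0.0404) and was 0.60 higher with U0126 than with SP600125 (adjusted p = 0.00753). It was the only 1 of the 10 called in each, beside 0.592% and 2.93% of all tested probe sets. Of 7 other genes reported to respond to the receptor, 2 were tested. The actin-severing gene Scin was lower with U0126 than with SP600125, by a change of -1.35 ± 0.28 (adjusted p = 0.0133). That was 1 of 2, beside 2.93% of all tested probe sets. Its U0126 changes against control and over SB203580, -0.98 ± 0.28 and -0.92 ± 0.28, did not pass (adjusted p = 0.147 and 0.127).

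The signal pattern of Cyp1a1 over the 12 samples, with the mean of each array type removed, was set beside that of 22544 other tested probe sets naming 1 gene. Its nearest by Pearson correlation were Edc3 (0.940), an mRNA decapping factor, Gm4349 (0.940), Ndrg4 (0.933), Mcat (0.926), a mitochondrial fatty acid synthesis enzyme, and Diras2 (0.925). Ahrr ranked 10 (0.905) and Cyp1b1 ranked 140 (0.794), while Nqo1 had -0.07 and Ahr 0.20. Without the U0126 arrays, where Cyp1a1 was high, Ahrr and Cyp1b1 would have missed the filter (38.65 and 13.3, threshold 39.98). Their high correlations were thus partly built in, and their ranks give no separate support. Ndrg4 gave 2598, 4124 and 5027 in U0126-treated, 420.9, 850.2 and 797.9 in SP600125-treated, 1235, 654.9 and 673.1 in SB203580-treated and 716.8, 910.8 and 706.5 in control blastocysts. Like Cyp1a1 it was highest in the U0126 samples and, among the rest, higher in SB203580 replicate 1 than in any other sample of its array type, and it rose by 2.27 ± 0.28 with U0126 (adjusted p = 0.00118). These correlations are descriptions over samples that share 4 treatments and the scaling of each array.

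**Figure D4:**
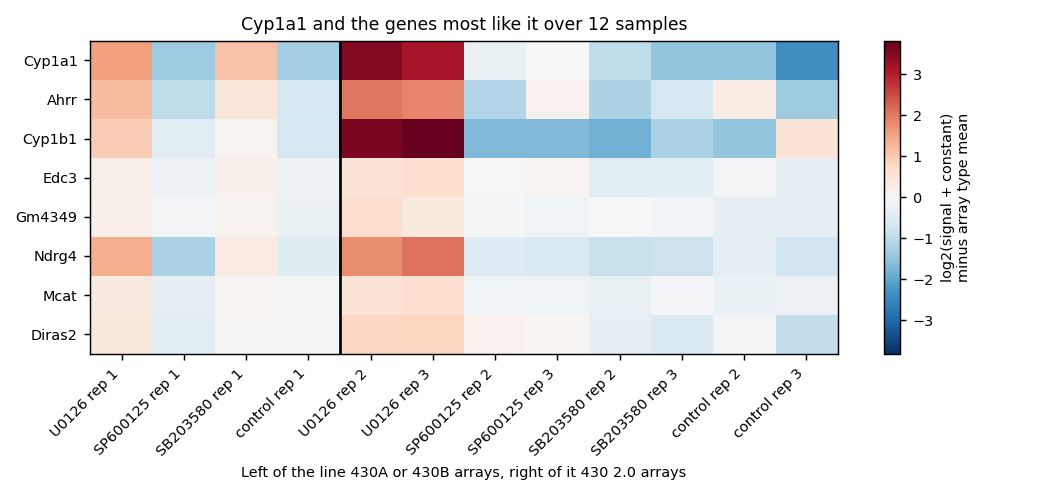
Log2(signal + 12.6) minus the mean of the array type (colour) for Cyp1a1, Ahrr, Cyp1b1 and the 5 probe sets most like Cyp1a1 (rows) in the 12 samples (columns), with 430A or 430B arrays left of the line and 430 2.0 arrays right of it. All rows are highest in the U0126-treated samples of each array type, and in SB203580 replicate 1 Cyp1a1 stands nearer to U0126 replicate 1 (705.5 and 963.0) than to control replicate 1 (121.6).

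Markers of other cell types that a blastocyst sample could carry were set beside Cyp1a1. Of 6 cumulus and granulosa cell markers, Amh, Fshr, Fst and Hsd3b1 were near background on most 430 2.0 arrays, and the summed signal of the 6 was 248.5 to 419.5 with U0126, 216.7 to 334.4 with SP600125, 211.5 to 376.1 with SB203580 and 281.6 to 379.5 in controls. Of 7 oviduct and uterine markers, Ltf, Pax8, Muc1 and Lcn2 were near background, with sums of 8037 to 11607 with U0126, 13757 to 19872 with SP600125, 11292 to 11711 with SB203580 and 9723 to 12647 in controls. Nearly all of that sum was Epcam, a general epithelial gene, at 7633 to 19460 over the 8 arrays. Of 6 blood and immune markers, Ptprc, Hba-a1 and Cd3e were near background, and the sums were 453.4 to 487.0 with U0126, 326.6 to 349.2 with SP600125, 353.4 to 412.8 with SB203580 and 190.0 to 342.3 in controls. That last sum, made of dim signals, was highest in the U0126 samples, as Cyp1a1 was. The median signal was also highest on those arrays (77.7 and 83.0, against 61.1 to 68.9), and its part in the sum was not tested. The sum of the 4 inner cell mass and epiblast markers was highest with U0126 too, 10034 to 10667 with U0126, 8347 to 8512 with SP600125, 8527 to 9149 with SB203580 and 7665 to 8561 in controls. Among them Fgf4 had 1765 and 1843 with U0126, 719.3 and 432.0 with SP600125, 465.3 and 604.8 with SB203580 and 692.9 and 643.1 in controls. Sox2 was also highest with U0126 (2930.2 and 3383.5, against 1512.2 to 2198.5 on the other arrays). Pou5f1 (4088.7 and 3760.8 with U0126) was highest with SB203580 (4146.6 and 4152.2). Nanog (1882.6 and 1046.6 with U0126) was highest with SP600125 (2858.2 and 2823.9). The sum of the 5 primitive endoderm markers was 6237 to 8127 with U0126, 7652 to 8234 with SP600125, 9224 to 11215 with SB203580 and 11661 to 11665 in controls. For the 7 trophectoderm markers the sum was 104514 to 112471 with U0126, 103557 to 111148 with SP600125, 93203.7 to 96232.5 with SB203580 and 102779 to 109588 in controls. The part of these cell types in the Cyp1a1 difference was not tested.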

How the data were processed

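For each probe set the authors deposited 1 linear signal intensity, scaled so that the mean of each array, with 2% trimmed at each end, was 500 (checked on all 16 arrays, 500.0 to 500.2). Software, background correction and probe summary: not given in the sources used here. Arrays 430A and 430B of a group were joined into its replicate 1. To each signal 12.6 was added (the 20th percentile of 430 2.0 values) and the log2 taken. A filter kept the 27022 probe sets whose mean over the 8 arrays of type 430 2.0 reached the 40th percentile (42.9). Affymetrix controls were left out. limma 3.58.1 in R 4.3.3 fitted the 4 groups and the array type to all 12 samples, with an intensity trend, 7 residual and 9.71 prior degrees of freedom. Two-sided p-values were adjusted by Benjamini-Hochberg over all tested probe sets in each of 6 comparisons, and an adjusted p under 0.05 was a call. Errors are standard errors, and replicate differences take each sample from the other group's mean on the same array type. The fit was tested on simulated data. The number of arrays limits the precision.

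The members and lists were chosen with earlier results of these data known. Named were all probe sets of the 7 genes, list members that passed a test, up to 4 others of each list by absolute moderated t in U0126 against control, and the 5 genes most like Cyp1a1. Cyp1a2, Aldh3a1 and Xdh, too dim to test, were named after their values were seen. Alternatives changed the constant, filter, scaling, array type, blocking, variance trend and samples. Same-numbered samples of different groups shared little deviation, so the numbers were not taken as pairs. The differences between replicates 2 and 3 correlated weakly, at 0.02 to 0.09 in the 6 pairs of groups. This check does not cover replicate 1.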

Additional observations from a re-analysis of the deposited data

How the results depend on the processing

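Cyp1a1 kept its U0126 against control call in 15 of 16 alternatives, with a change between 3.38 and 5.26, and lost it without the intensity trend (4.46, adjusted p = 0.131). Probe sets called in the 6 comparisons, in the order U0126, SP600125 and SB203580 against control, U0126 over SP600125, U0126 over SB203580 and SP600125 over SB203580, numbered 2, 8, 1, 130, 36 and 23 without the trend and 56, 82, 35, 345, 197 and 116 on the 430 2.0 arrays alone. With only the compared groups fitted, the 3 counts of U0126 were 60, 410 and 177. A filter at the 60th percentile gave 187 in U0126 against control, and median scaling gave 268 there and 94 in SP600125 against control. Leaving out each replicate gave 53 to 118, 76 to 91, 33 to 79, 364 to 715, 145 to 321 and 99 to 142.

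Cyp1b1 in U0126 against control passed with the 50th percentile as constant (2.27), a 60th percentile filter (3.33), median scaling (3.15), the 430 2.0 arrays alone (4.20) and only the compared groups (3.33), and ran from 2.78 to 4.56 with a replicate left out. Ahrr there passed with that constant (1.42). Without the trend the calls over SP600125 were lost for Cyp1a1 (3.30), Cyp1b1 (4.05) and Ahrr (2.32), and those over SB203580 for Cyp1a1 (3.20) and Cyp1b1 (3.76). The Ahrr call over SP600125 was also lost with the 5th percentile as constant (2.63), without the filter (2.32) and on the 430 2.0 arrays alone (2.42), and was not tested under the 60th percentile filter. With a replicate left out, changes over SP600125 ran from 2.76 to 4.09 for Cyp1a1 and 2.07 to 2.74 for Ahrr, and over SB203580 from 2.63 to 4.25 for Cyp1a1 and 3.21 to 4.98 for Cyp1b1. The cause of these losses and gains was not tested.

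With the replicate number as a block, 148 probe sets were called in U0126 against control and Cyp1a1 stayed at 4.46. Tiparp 1426721_s_at then passed in SP600125 over SB203580 (0.72, adjusted p = 0.0266) and 1452161_at in U0126 over SB203580 (0.82, adjusted p = 0.0485). The main fit did not take the numbers as pairs. Tiparp 1452161_at also passed over SB203580 with a 60th percentile filter, for U0126 (0.82, adjusted p = 0.0369) and SP600125 (0.84, adjusted p = 0.0492), and for U0126 with the 50th percentile as constant (0.73, adjusted p = 0.0489), where Ahrr passed too (1.37, adjusted p = 0.0207). Of 72 results of these genes, 31 changed sign under some alternative, none of them called in either setting and all at most 0.43 in size as reported. Among them, Cyp1a1 in SP600125 over SB203580 was -0.11 with all samples, 1.09 on the 430 2.0 arrays alone and 0.94 without SB203580 replicate 1. Median scaling split SB203580 against control into 7 higher and 67 lower (24 and 81 as deposited) and SP600125 over SB203580 into 138 and 17 (152 and 61). Signals near background limit what can be said of Cyp1b1, Ahrr and Nqo1, and of the size of the Cyp1a1 changes.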
